A study of Mus musculus with 15 samples.

Results

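Complement is a blood and tissue defence cascade, and 9 of its component genes were followed in the RNA of mouse skin. The members were C1qa, C1qb, C1qc, C1ra, C1s1, C2, C4b, C3 and Cfb, picked out by their gene names among the 54532 genes of the table, and each name occurred there exactly once. The set was chosen with earlier results of these data known. Each of 4 groups held 3 libraries of poly-A RNA: MC903 for 7 days on skin labelled Trpv3 knockout, MC903 for 7 days on wild type skin, untreated skin labelled Trpv3 knockout, and untreated wild type skin. MC903, also called calcipotriol, mimics vitamin D, and on mouse skin it produces an inflammation used to model atopic dermatitis. TRPV3 is a calcium-permeable heat-gated channel of keratinocytes, and the series asks about its part, with PAR2 and IL-33, in neuroimmune signalling. The labels name neither strain, age, sex nor any vehicle, and they do not say which cells lose Trpv3, although the series speaks of conditional knockouts. Whether a group's 3 libraries are 3 animals is not stated either. The p-values therefore weigh differences against library-to-library spread alone, and that spread may be technical.

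Complement can be switched on by 3 routes. In the classical route the recognition molecule C1q binds antibody or altered surfaces, and its attached proteases C1r and C1s cut C4 and C2 to build an enzyme that cleaves C3. In the alternative route factor B serves in place of C2 and amplifies the cleavage of C3, whose fragments coat targets, attract leukocytes and lead on to the terminal pore. Most plasma complement is made in the liver, but tissue macrophages are a main source of C1q, and fibroblasts, macrophages and epithelial cells make other components locally.

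The 3 C1q chain genes lie next to one another on chromosome 4 (mm10, minus strand): C1qb at 136880129 to 136886187, C1qc at 136889804 to 136893065 and C1qa at 136895917 to 136898803. C1ra (124512405 to 124523443, plus strand) and C1s1 (124530345 to 124542359, minus strand) are neighbours on chromosome 6. Cfb (34856374 to 34862518), C2 (34862604 to 34898265) and C4b (34728380 to 34743882) lie on the minus strand of chromosome 17 within the major histocompatibility complex, and C3 (57203970 to 57228136, minus strand) lies elsewhere on that chromosome. These coordinates are the same in the deposited table and in the GENCODE annotation of that build. RefSeq promoter sequences (GRCm38.p6) were found for 5 of the 9 members: C1qb, C1qc, C1ra, C1s1 and C3. The 3 stretches printed here belong to the neighbouring chain genes C1qb and C1qc, whose levels ran closely together, and to C3, the member with the largest fitted log2 fold change between genotypes after MC903. Each reads 5′ to 3′ on the minus strand and ends before the first transcribed base. The C1qc stretch stops 151 bases before the RefSeq start, because GENCODE places those bases within the gene. Capitals mark a match to the ETS core AGGAAGT or its reverse complement in C1qb and C1qc, and a match to the C/EBP pattern TTNNGNAAT in C3.
C1qb, chr4:136886201-136886450: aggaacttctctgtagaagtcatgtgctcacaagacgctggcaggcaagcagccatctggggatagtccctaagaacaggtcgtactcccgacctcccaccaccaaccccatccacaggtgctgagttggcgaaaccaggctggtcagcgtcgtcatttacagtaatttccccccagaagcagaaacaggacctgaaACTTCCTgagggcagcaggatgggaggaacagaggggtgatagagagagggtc
C1qc, chr4:136893066-136893164: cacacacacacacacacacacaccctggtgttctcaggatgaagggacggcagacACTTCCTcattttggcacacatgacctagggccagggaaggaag
C3, chr17:57228137-57228386: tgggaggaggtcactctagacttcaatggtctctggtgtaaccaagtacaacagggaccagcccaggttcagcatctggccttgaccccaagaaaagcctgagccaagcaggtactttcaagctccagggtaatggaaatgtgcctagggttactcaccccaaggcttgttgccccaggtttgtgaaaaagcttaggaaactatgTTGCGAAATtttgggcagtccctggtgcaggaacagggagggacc

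Both strands of the 250 bases before each RefSeq start were searched for 5 letter patterns. ETS factors include PU.1, the master regulator of macrophages, and the letters AGGAAGT stood 53 bases before the start of C1qb and 195 bases before that of C1qc. These letters stood in 7.69% of the 32851 promoters of the RefSeq table. C/EBP factors drive acute-phase genes, and TTNNGNAAT stood 45 bases before the start of C3 and also in the windows of C1ra and C1s1, against 10.2% of all promoters. The TATA box letters TATAAA (12.4% of all promoters), the interferon response pattern (GAAA, any 2 bases, GAAA; 2.98%) and the NF-kappaB pattern (GGGA, any base, TTTCC; 0.356%) were not in these windows. A match of letters is a description of the sequence and does not show that a factor bound there.

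Gene totals ran from 16869716 to 18485698 reads a library. Trpv3 had 4.73 to 6.82 FPKM in MC903 libraries labelled knockout, against 16.1 to 19.0 FPKM in MC903 wild type libraries. In untreated skin it had 2.62 to 3.64 FPKM in libraries labelled knockout, against 1.13 to 2.71 FPKM in wild type libraries, so the untreated libraries did not show less Trpv3 RNA under the knockout label. The genotype is therefore given as the labels give it. Replicate 3 of untreated wild type skin stood apart: compared gene by gene with its group mates, its reads gave 44.9 and 60.1 units of chi-square for each degree of freedom, against 6.46 to 28.5 in the other replicate pairs. Its summed skeletal muscle markers were 3396 FPKM, against 1679 and 1741 FPKM in its group mates. Member results that it moved across the threshold or by a large amount are given with and without it.

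All 9 members were detected in all 12 libraries, at levels that differed widely. FPKM is a read count scaled by gene length and by a factor for each library, so levels of different genes can be set side by side. This is less sure for Cfb and C2, which share exon bases with another gene. The library factor was 0.917 to 1.11 times the library's total reads. It followed a size factor, the median ratio of a library's gene reads to those of all libraries, within 0.696%, so it was not plain depth. The C1q chains, C3 and C4b were the abundant members, with 38.9 FPKM or more in every library and up to 329 FPKM for C1qb. The proteases C1s1 (25.6 to 51.9 FPKM) and C1ra (13.8 to 31.4 FPKM) came next. C2 stayed between 1.37 and 3.997 FPKM, and Cfb between 0.0635 and 0.969 FPKM, which rested on 3 to 51 reads a library. Genes were tested if they had at least 0.5 FPKM in 3 or more libraries, which 17646 genes and all 9 members passed. Cfb passed through 5 libraries, all labelled knockout, so its inclusion leans on the group where it was high.

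**Figure D1:**
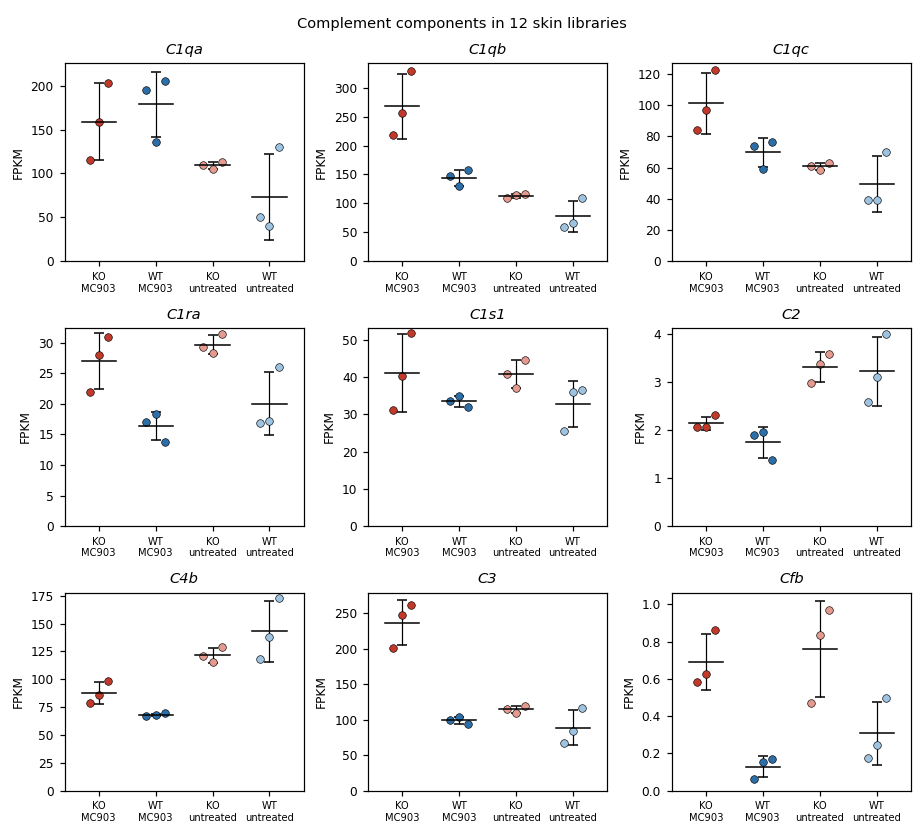
FPKM of each of the 9 complement components (y axis, linear from 0) in the 12 skin libraries, by group (x axis; KO, labelled knockout; WT, wild type). Points are libraries, horizontal bars are group means and error bars are SD (n = 3); C3 reached 200.3 to 261 FPKM in MC903 skin labelled knockout and at most 118.6 FPKM elsewhere.

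After MC903, 5 of the 9 members were higher in skin labelled knockout than in wild type skin and none was lower by limma with Benjamini-Hochberg adjustment over all genes, while 52.1% of all tested genes differed and 25.9% were higher. The higher members were C3, Cfb, C1qb, C1ra and C4b. Without Cfb, 4 of the other 8 members were higher. In untreated skin no member passed (0 of 9, against 11.7% of all tested genes), although 4 members had an unadjusted p under 0.05 and 8 had a positive log2 fold change. Without untreated wild type replicate 3, 6 members were higher in untreated skin labelled knockout, against 20.4% of all genes that differed and 12.1% that were higher in the same fit. They include Cfb, whose inclusion in the tests leans on libraries labelled knockout. The others were C1qa, C1qb, C1qc, C1ra and C3. The cause of the position of untreated wild type replicate 3 was not tested. The median log2 fold change of the 9 members was 0.53 after MC903, against -0.03 over all tested genes, and 0.40 in untreated skin, against 0.01 over all tested genes. These medians include Cfb (0.92 after MC903 and 0.64 in untreated skin), so they too lean on its inclusion. The members were also chosen with earlier results of these data known, so these counts and medians are a description.

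MC903 changed some members in each genotype. In skin labelled knockout C1qb, C3 and C1qc rose and C4b and C2 fell, 5 of 9 members against 47.9% of all tested genes. In wild type skin C1qa, C1qb and C1qc rose and C4b and C2 fell, again 5 of 9, against 63.0% of all tested genes. These shares lay near those of all genes. The response itself differed between the genotypes for 2 members, C3 and C4b, against 39.7% of all tested genes. The comparisons share libraries with one another, so their counts are not independent. Groups without overlap were common. Between genotypes 62.7% of all tested genes did not overlap after MC903, and 31.1% did not in untreated skin. Between MC903 and untreated skin it was 63.0% in skin labelled knockout and 64.1% in wild type skin. In bulk skin RNA, a change in the number of cells of a type and a change in RNA per cell cannot be told apart.

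**Figure D2:**
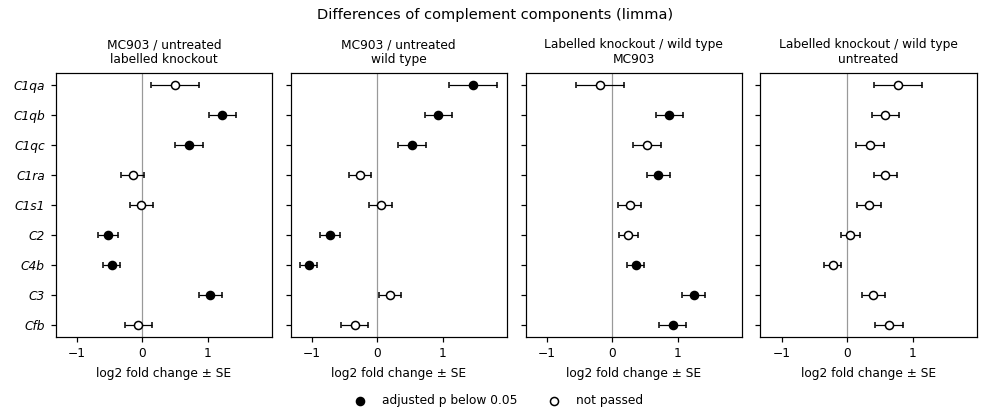
Log2 fold change ± SE (x axis, on the log2(FPKM + 0.5) scale) of the 9 members (y axis) in 4 comparisons, one per panel. Filled points passed an adjusted p of 0.05 in limma: 5 members in skin labelled knockout against untreated, 5 in wild type skin against untreated, 5 between genotypes after MC903 and 0 between genotypes in untreated skin.

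C1q is a bundle of A, B and C chains in equal numbers, encoded by C1qa, C1qb and C1qc, and binds immune complexes and dying cells. C1qb had 218, 257 and 329 FPKM in MC903 skin labelled knockout, against 147, 129.8 and 157 FPKM in MC903 wild type skin. In untreated skin C1qb had 109, 114 and 116 FPKM under the knockout label, against 59.9, 65.7 and 109 FPKM in wild type. The 4 groups thus stood in a fixed order without overlap, MC903 skin labelled knockout first and untreated wild type skin last, but untreated wild type replicate 3 lay just below the untreated libraries labelled knockout. Of all tested genes 31.0% were higher without overlap under the knockout label after MC903, and 16.9% in untreated skin. MC903 raised C1qb 2.37-fold in mean FPKM in skin labelled knockout (1.22 ± 0.21 SE on the log2 scale, limma adjusted p = 0.000676) and 1.85-fold in wild type skin (0.93 ± 0.21, limma adjusted p = 0.00224), or by 1.19 ± 0.15 on the log2 scale without untreated wild type replicate 3 (limma adjusted p = 6.47e-05). The genotype difference after MC903 was 0.87 ± 0.21 (limma adjusted p = 0.00471), and in untreated skin it was 0.58 ± 0.21 and did not pass (limma adjusted p = 0.0954). Rescaled to TPM, the wild type response of C1qb missed the threshold (0.45, limma adjusted p = 0.0504).

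C1qc ran in parallel at a lower level. It had 84.0, 97.1 and 122 FPKM in MC903 skin labelled knockout, against 73.6, 58.8 and 76.6 FPKM in MC903 wild type skin. Untreated libraries had 61.2, 58.3 and 63.0 FPKM under the knockout label, against 38.9, 39.5 and 70.0 FPKM in wild type. All MC903 libraries labelled knockout were above every other library, whereas the other 3 groups overlapped. MC903 raised C1qc in skin labelled knockout by 0.71 ± 0.21 on the log2 scale (limma adjusted p = 0.0173) and in wild type skin by 0.53 ± 0.21 (limma adjusted p = 0.0465). The rise in wild type skin did not pass in 12 of 23 alternative fits: its value was 0.39 to 0.49 without any 1 of MC903 wild type replicates 1 and 3 or untreated wild type replicates 1 and 2 (limma adjusted p 0.116 to 0.165). It did not pass either without MC903 replicate 2 labelled knockout or any 1 untreated replicate labelled knockout (0.53, limma adjusted p 0.0595 to 0.0600), with no filter or with only the groups compared (0.53, limma adjusted p 0.0862 and 0.106), with total reads (0.32, limma adjusted p = 0.183) or under TPM (0.06, limma adjusted p = 0.7998). It was 0.81 ± 0.15 when untreated wild type replicate 3 was left out (limma adjusted p = 0.000882). In skin labelled knockout the rise did not pass without MC903 replicate 3 (0.57, limma adjusted p = 0.0686) or untreated replicate 2 (0.68, limma adjusted p = 0.0507). The genotype difference after MC903 was 0.53 ± 0.21 and just missed the threshold (limma adjusted p = 0.0574), which it passed in 8 of 23 alternatives. Among these was the fit without untreated wild type replicate 3 (0.53 ± 0.14, limma adjusted p = 0.00711).

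C1qa, the third chain, did not follow the same order. It had 115, 159 and 203 FPKM in MC903 skin labelled knockout, against 195, 136 and 205 FPKM in MC903 wild type skin. Without treatment it had 109.7, 105 and 113 FPKM under the knockout label, against 49.9, 39.6 and 130.0 FPKM in wild type. The MC903 groups overlapped, and untreated wild type replicate 3 was far above its group mates. MC903 raised C1qa in wild type skin 2.44-fold (log2 fold change 1.46 ± 0.37, limma adjusted p = 0.00483), and without untreated wild type replicate 3 the log2 fold change was 1.97 ± 0.23 (limma adjusted p = 3.92e-05). In skin labelled knockout its log2 fold change was 0.50 ± 0.37 and did not pass (limma adjusted p = 0.290). There the 3 MC903 libraries lay above the 3 untreated ones, as was so for 32.0% of all tested genes. The difference between these responses was -0.96 ± 0.52 (limma adjusted p = 0.165), and without untreated wild type replicate 3 it was -1.47 ± 0.31 and passed (limma adjusted p = 0.00359). Without that library C1qa was also higher in untreated skin labelled knockout (1.29 ± 0.23, limma adjusted p = 0.00558), as were C1qb (0.84 ± 0.15, limma adjusted p = 0.00542) and C1qc (0.63 ± 0.15, limma adjusted p = 0.0181).

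Because the 3 chains assemble in equal numbers, their ratio within a library was taken as a further description. C1qa over C1qb was 0.526, 0.619 and 0.617 in MC903 skin labelled knockout, against 1.33, 1.05 and 1.31 in MC903 wild type skin. Untreated libraries gave 1.01, 0.921 and 0.976 under the knockout label, against 0.832, 0.603 and 1.19 in wild type. After MC903 the genotypes were thus apart, with every wild type library higher. C1qc over C1qb was 0.372 to 0.385 in MC903 skin labelled knockout and 0.453 to 0.501 in MC903 wild type skin, against 0.510 to 0.562 in untreated skin labelled knockout and 0.602 to 0.650 in untreated wild type skin. Unlike C1qa over C1qb, this ratio did not overlap between any of the 4 groups. No test was made on these ratios, which were formed after the levels were known.

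**Figure D3:**
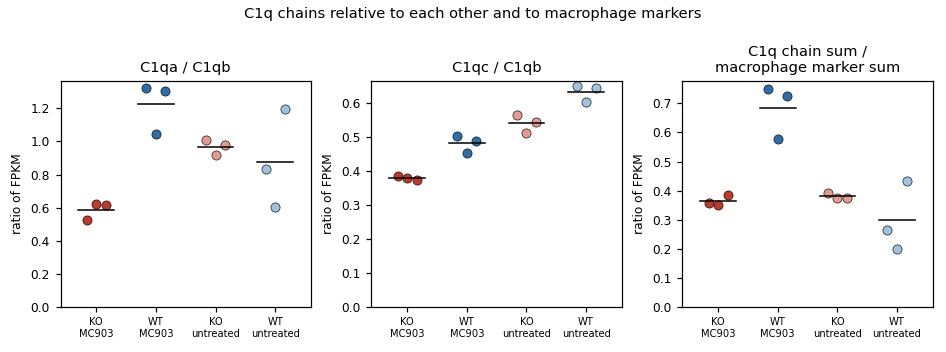
Ratios of FPKM (y axes, linear from 0) within each of the 12 libraries, by group (x axis): C1qa over C1qb, C1qc over C1qb, and the sum of the 3 C1q chains over the sum of 14 macrophage and monocyte markers. Points are libraries and bars are group means; C1qa over C1qb was 0.526 to 0.619 in MC903 skin labelled knockout and 1.05 to 1.33 in MC903 wild type skin.

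Markers of macrophages, which make C1q, were higher in some of the same comparisons. Of 14 macrophage and monocyte markers 13 were higher in MC903 skin labelled knockout than in MC903 wild type skin and none was lower (median log2 fold change 1.41). Of all tested genes 25.9% were higher and 26.1% were lower in that comparison. The summed level of the 14 markers was 1170 to 1701 FPKM in MC903 skin labelled knockout, against 554 to 604 FPKM in MC903 wild type skin. Untreated libraries gave 716 to 780 FPKM under the knockout label, against 561 to 726 FPKM in wild type. There 5 markers were higher, against 7.15% of all tested genes. In response to MC903, 12 of the 14 markers rose and 1 fell in skin labelled knockout, while 6 rose and 3 fell in wild type skin. Of all tested genes 25.0% rose and 23.0% fell in skin labelled knockout, and 32.6% rose and 30.3% fell in wild type skin. No marker of the list was at 0 in all libraries. The pan-macrophage receptor Adgre1 (F4/80) was higher in MC903 skin labelled knockout than in MC903 wild type skin by 1.92 ± 0.16 on the log2 scale (limma adjusted p = 6.50e-06). The sum of the C1q chains per unit of summed markers was 0.349 to 0.384 in MC903 skin labelled knockout, against 0.578 to 0.750 in MC903 wild type skin, so per marker RNA the genotypes stood in the opposite order. In untreated skin this ratio was 0.374 to 0.391 under the knockout label, against 0.200 to 0.433 in wild type. The part of macrophage abundance in the C1q differences was not tested.

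C1r and C1s are the paired serine proteases of C1, and C1r switches on C1s. C1ra had 22.0, 28.1 and 31.0 FPKM in MC903 skin labelled knockout, against 17.0, 18.3 and 13.8 FPKM in MC903 wild type skin. In untreated skin it had 29.3, 28.3 and 31.4 FPKM under the knockout label, against 16.9, 17.1 and 26.0 FPKM in wild type. In both states every library labelled knockout was above every wild type library. This was so for 31.0% of all tested genes after MC903 and for 16.9% in untreated skin. In each genotype the MC903 and untreated levels of C1ra overlapped. After MC903 the genotype difference was 0.70 ± 0.17 on the log2 scale (limma adjusted p = 0.00604). In untreated skin it was 0.58 ± 0.17 and did not pass (limma adjusted p = 0.0536), but it passed without untreated wild type replicate 3 (0.78 ± 0.14, limma adjusted p = 0.00617). It also passed, by a narrow margin, without MC903 replicate 1 labelled knockout (0.58, limma adjusted p = 0.0491). The MC903 response did not pass in skin labelled knockout (-0.15 ± 0.17, limma adjusted p = 0.521) or in wild type skin (-0.27 ± 0.17, limma adjusted p = 0.207), but in wild type skin a fall passed after scaling by total reads (-0.47) or to TPM (-0.74).

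C1s1 was the member that passed in none of the comparisons. It had 31.1, 40.4 and 51.9 FPKM in MC903 skin labelled knockout, against 33.5, 34.9 and 32.0 FPKM in MC903 wild type skin. Untreated libraries had 40.8, 37.2 and 44.5 FPKM under the knockout label, against 25.6, 36.0 and 36.5 FPKM in wild type. The MC903 groups overlapped and the untreated ones did not, by less than 1 FPKM. Its log2 fold changes were -0.02 ± 0.18 to 0.33 ± 0.18 in the 4 comparisons (limma adjusted p 0.235 to 0.954). Its genotype difference after MC903 passed without MC903 replicate 1 labelled knockout (0.45, limma adjusted p = 0.0469) and when rescaled to TPM (0.56). An antisense gene, Gm16567, covers 18.4% of its exon bases and had 0 reads.

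C2 and factor B are homologous serine proteases, which form the cutting subunits of the classical and the alternative C3 convertase. C2 had 2.06, 2.06 and 2.30 FPKM in MC903 skin labelled knockout, against 1.90, 1.95 and 1.37 FPKM in MC903 wild type skin. Without treatment it had 2.97, 3.38 and 3.59 FPKM under the knockout label, against 2.58, 3.10 and 3.997 FPKM in wild type. All 6 MC903 libraries were below all 6 untreated ones. C2 fell by 0.53 ± 0.15 on the log2 scale with MC903 in skin labelled knockout (limma adjusted p = 0.0133) and by 0.73 ± 0.15 in wild type skin (limma adjusted p = 0.00135). The fall in skin labelled knockout just missed the threshold without untreated replicate 3 (-0.48, limma adjusted p = 0.0501). Between genotypes C2 passed neither after MC903 (0.25 ± 0.15, limma adjusted p = 0.190) nor in untreated skin (0.05 ± 0.15, limma adjusted p = 0.866). Its MC903 libraries did not overlap between genotypes, as was so for 62.7% of all tested genes. Rescaled to TPM, the difference after MC903 passed (0.56).

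Cfb, which encodes factor B, had the lowest FPKM of the members. It had 0.585, 0.627 and 0.861 FPKM in MC903 skin labelled knockout, against 0.0635, 0.152 and 0.169 FPKM in MC903 wild type skin. In untreated skin it had 0.471, 0.835 and 0.969 FPKM under the knockout label, against 0.178, 0.246 and 0.4998 FPKM in wild type. The MC903 genotypes were far apart, and in untreated skin replicate 1 labelled knockout and wild type replicate 3 overlapped. After MC903 the mean FPKM was 5.39 times as high in skin labelled knockout. The log2 fold change, which the added 0.5 shrinks at such levels, was 0.92 ± 0.21 (limma adjusted p = 0.00338). In untreated skin it was 0.64 ± 0.21 and did not pass (limma adjusted p = 0.0708), and without untreated wild type replicate 3 it was 0.80 ± 0.21 and passed (limma adjusted p = 0.0256). MC903 itself gave no change that passed in skin labelled knockout (-0.06 ± 0.21, limma adjusted p = 0.821) or in wild type skin (-0.35 ± 0.21, limma adjusted p = 0.166), where a fall passed after rescaling to TPM (-0.86).

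The Cfb and C2 genes share exon bases with a readthrough gene, Gm20547, which spans both. It covers 79.5% of the exon bases of Cfb and 42.8% of those of C2, and another 4.16% of C2 is shared with Zbtb12 on the opposite strand. How reads on shared exons were counted is not given in the sources used here. Gm20547 itself had 1 read in all 12 libraries together. The levels of Cfb and C2 are uncertain to that extent.

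C4 and C3 are the related thioester proteins that bind covalently to target surfaces. C4b had 78.9, 86.3 and 98.2 FPKM in MC903 skin labelled knockout, against 67.5, 67.8 and 69.5 FPKM in MC903 wild type skin. Untreated libraries had 121, 115 and 129 FPKM under the knockout label, against 118.4, 138 and 173 FPKM in wild type. Every MC903 library was below every untreated one, the MC903 genotypes did not overlap, and the untreated ones did. Of all tested genes 62.7% did not overlap between genotypes after MC903. C4b was 0.722 times its untreated mean in skin labelled knockout (-0.47 ± 0.13 on the log2 scale, limma adjusted p = 0.0108) and 0.477 times in wild type skin (-1.05 ± 0.13, limma adjusted p = 3.27e-05). The fall was smaller in skin labelled knockout, with a difference between responses of 0.57 ± 0.18 (limma adjusted p = 0.0275). That difference held without untreated wild type replicate 3 (0.43 ± 0.14, limma adjusted p = 0.0282). It missed the threshold without MC903 replicate 3 labelled knockout, MC903 wild type replicate 1, or untreated replicate 1 or 2 labelled knockout (0.49 to 0.57, limma adjusted p 0.0553 to 0.0657). It also missed with no filter (0.57, limma adjusted p = 0.0525) and with library weights (0.33, limma adjusted p = 0.0576).

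After MC903 C4b was higher in skin labelled knockout than in wild type skin by 0.36 ± 0.13 on the log2 scale (limma adjusted p = 0.0372). This call was lost without any 1 MC903 wild type replicate, MC903 replicate 2 or 3 labelled knockout, or untreated replicate 1 labelled knockout (0.27 to 0.37, limma adjusted p 0.0512 to 0.135). The untreated difference was -0.22 ± 0.13 (limma adjusted p = 0.297). C4b has a near copy, C4a, and 16.5% of the 100-base windows of its longest transcript also occur in C4a. C4a had 0.0892 to 0.139 FPKM in MC903 skin labelled knockout, against 0.376 to 0.566 FPKM in MC903 wild type skin. Against the 67.5 FPKM or more of C4b these are small amounts. C1ra and C1s1 also have near copies, C1rb and C1s2, which share 34.5% and 7.90% of such windows and stayed at or below 0.199 and 0.623 FPKM.

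C3, on which all routes converge, had 200.3, 248 and 261 FPKM in MC903 skin labelled knockout, against 100.2, 104 and 93.7 FPKM in MC903 wild type skin. Without treatment it had 115, 109 and 119 FPKM under the knockout label, against 66.5, 84.1 and 116 FPKM in wild type. The MC903 libraries labelled knockout stood far above all others, while both wild type groups overlapped. MC903 raised C3 2.07-fold in skin labelled knockout (log2 fold change 1.04 ± 0.17, limma adjusted p = 0.000563). In wild type skin the change was 0.19 ± 0.17 and did not pass (limma adjusted p = 0.342). It passed without untreated wild type replicate 3 (0.40 ± 0.13, limma adjusted p = 0.0187), and its sign turned when values were scaled by total reads (-0.02) or to TPM (-0.28). The difference between the responses was 0.84 ± 0.24 (limma adjusted p = 0.0178), and 0.63 ± 0.17 without that library (limma adjusted p = 0.0134). It passed in all 22 alternatives, at 0.49 to 1.13.

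After MC903 mean C3 was 2.38 times as high in skin labelled knockout as in wild type skin (log2 fold change 1.24 ± 0.17, limma adjusted p = 0.000146), and this passed in all 23 alternatives. In untreated skin the difference was 0.40 ± 0.17 (limma adjusted p = 0.155), and without untreated wild type replicate 3 it was 0.61 ± 0.13 and passed (limma adjusted p = 0.0108). Within libraries C3 over C4b was 2.54, 2.87 and 2.66 in MC903 skin labelled knockout, against 1.48, 1.53 and 1.35 in MC903 wild type skin. Untreated libraries gave 0.922 to 0.953 under the knockout label, against 0.562 to 0.671 in wild type. With MC903 in skin labelled knockout C3 rose and C4b fell, although they are related genes.

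Fibroblasts are a skin source of C3, C4, C1r and C1s. Of 10 fibroblast and dermal matrix markers 8 were higher in MC903 skin labelled knockout than in MC903 wild type skin (median log2 fold change 1.49), and 4 were higher in untreated skin. Among all tested genes these shares were 25.9% and 7.15%. The summed level of the 10 markers was 1910 to 2452 FPKM in MC903 skin labelled knockout, against 708 to 822 FPKM in MC903 wild type skin. Untreated libraries gave 4793 to 5468 FPKM under the knockout label, against 1330 to 2384 FPKM in wild type. MC903 lowered 4 of these markers in skin labelled knockout and 7 in wild type skin, and raised 1 in each. Of all tested genes it lowered 23.0% and 30.3%, and raised 25.0% and 32.6%, in the same order. Basal keratinocyte markers went the other way between genotypes after MC903, with 7 of 7 lower in skin labelled knockout and summed levels of 3489 to 4877 FPKM, against 12362 to 17305 FPKM in wild type skin. Between genotypes after MC903, 26.1% of all tested genes were lower and 25.9% were higher. Lower were 4 of 5 suprabasal keratinocyte and 5 of 5 skeletal muscle markers. Higher were 5 of 5 tested dendritic and Langerhans cell markers, 4 of 6 mast cell markers and 4 of 5 endothelial markers. The other endothelial marker was lower. Of 5 T cell markers 1 was higher, which is near the share of all genes. No marker of these lists was at 0 in all libraries. The part of these shifts in the member differences was not tested.

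The rest of the cascade was read from 46 further complement genes, of which 29 were abundant enough to test. These lists were chosen with earlier results of these data known, so their counts are a description. After MC903 19 of the 29 were higher in skin labelled knockout than in wild type skin and 2 were lower, against 25.9% and 26.1% of all tested genes. In untreated skin 4 were higher and 3 lower, against 7.15% and 4.55% of all tested genes. MC903 raised 11 and lowered 7 in skin labelled knockout, against 25.0% and 23.0% of all tested genes. In wild type skin it raised 6 and lowered 11, against 32.6% and 30.3% of all tested genes. The response differed between genotypes for 13, all with a higher value in skin labelled knockout, against 3527 of all 17646 tested genes in that direction. The untreated calls were fragile: between 1 and 10 of these genes passed when 1 library was left out.

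**Figure D4:**
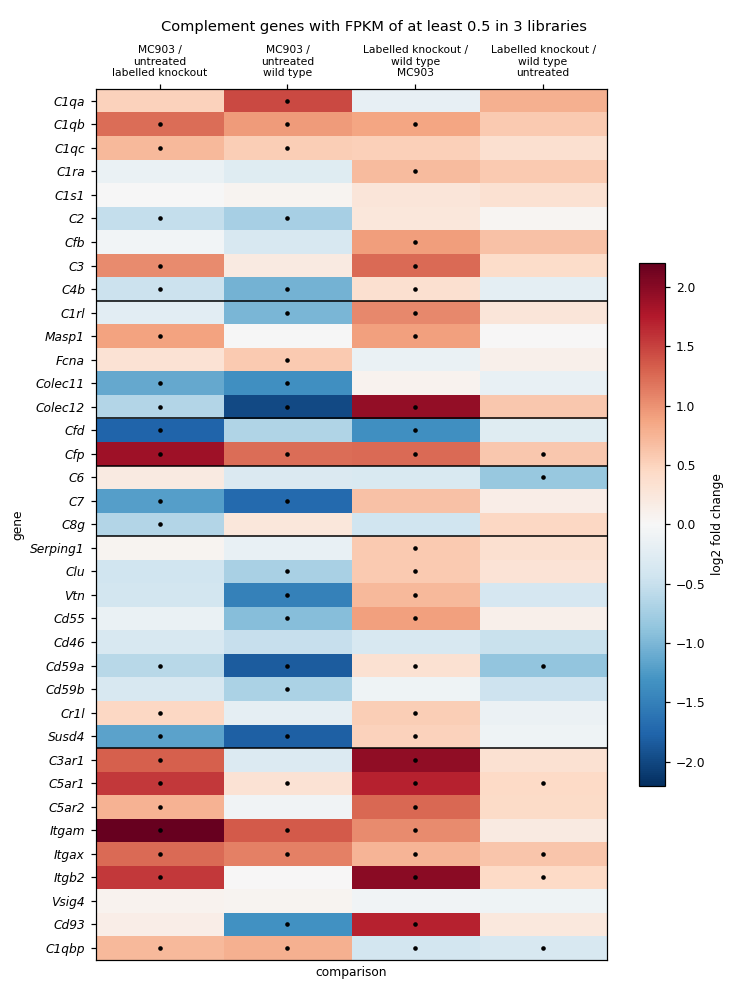
Log2 fold change (colour, on the log2(FPKM + 0.5) scale) of the 9 members (top block) and of other tested complement genes (y axis, in blocks of recognition and proteases, alternative route, terminal route, regulators and receptors) in 4 comparisons (x axis). Dots mark an adjusted p under 0.05; between genotypes after MC903 the dots of the receptor block mark 7 genes that were higher in skin labelled knockout and 1 that was lower.

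Among recognition molecules and proteases, 3 of 5 tested genes were higher in MC903 skin labelled knockout than in MC903 wild type skin. Colec12, a membrane collectin and scavenger receptor, had 42.7, 38.4 and 44.8 FPKM there, against 9.34, 11.98 and 10.5 FPKM in MC903 wild type skin (log2 fold change 1.94 ± 0.20, limma adjusted p = 2.51e-05). These MC903 groups were far apart. Untreated libraries had 61.7, 61.8 and 73.5 FPKM under the knockout label, against 34.6, 36.1 and 65.4 FPKM in wild type. MC903 thus lowered Colec12 in both genotypes. In skin labelled knockout that call was lost without MC903 replicate 1 or 2 or untreated replicate 3. Between genotypes after MC903, Masp1, a protease of the lectin route, was higher by 0.90 ± 0.20 (limma adjusted p = 0.00307), and C1rl, a relative of C1r, by 1.05 ± 0.20 (limma adjusted p = 0.00110). C1rl fell with MC903 in wild type skin (-1.01 ± 0.20, limma adjusted p = 0.000920). In skin labelled knockout its change did not pass (-0.23 ± 0.20, limma adjusted p = 0.362). The soluble collectin Colec11 fell with MC903 in skin labelled knockout (-1.12 ± 0.23, limma adjusted p = 0.00207) and in wild type skin (-1.35 ± 0.23, limma adjusted p = 0.000337).

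The alternative route has 2 further genes, which differed in opposite directions between genotypes after MC903. Cfp encodes properdin, the leukocyte product that stabilises the alternative convertase. It had 70.3, 80.5 and 94.4 FPKM in MC903 skin labelled knockout, against 31.6, 30.8 and 40.4 FPKM in MC903 wild type skin. In untreated skin it had 22.4, 22.1 and 20.9 FPKM under the knockout label, against 10.8, 14.8 and 18.0 FPKM in wild type, so no groups overlapped. In the comparisons made here 31.1% to 64.1% of all tested genes did not overlap. MC903 raised Cfp in skin labelled knockout (1.87 ± 0.17, limma adjusted p = 1.13e-05) and in wild type skin (1.23 ± 0.17, limma adjusted p = 8.77e-05), and after MC903 it was higher in skin labelled knockout (1.24 ± 0.17, limma adjusted p = 0.000151). Cfd encodes factor D, the adipocyte protease adipsin that cuts factor B. It had 102, 71.7 and 130.0 FPKM in MC903 skin labelled knockout, against 223, 248 and 291 FPKM in MC903 wild type skin (-1.36 ± 0.40, limma adjusted p = 0.0149). Without MC903 replicate 2 labelled knockout this missed the threshold (-1.13, limma adjusted p = 0.0599). Untreated libraries had 344, 308 and 349 FPKM of Cfd under the knockout label, against 203, 371 and 841 FPKM in wild type. With MC903 Cfd fell in skin labelled knockout, while in wild type skin its change did not pass. Of 6 adipocyte markers 3 were higher, 1 was lower and 2 did not pass between genotypes after MC903. Of all tested genes 25.9% were higher and 26.1% were lower there.

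The terminal route was sparse. Of 7 genes 3 were tested, and Hc, which encodes C5, had 0.250 FPKM or less in every library. C7 fell with MC903 in skin labelled knockout (-1.21 ± 0.31, limma adjusted p = 0.00813) and in wild type skin (-1.71 ± 0.31, limma adjusted p = 0.000605). None of the 3 passed between genotypes after MC903.

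Regulators protect host cells from complement, and 8 of 10 tested were higher in MC903 skin labelled knockout than in MC903 wild type skin. Among them were Vtn, Cd55, Cd59a and Cr1l. Cd55, which breaks up convertases, had 5.93, 7.89 and 8.06 FPKM in MC903 skin labelled knockout, against 3.07, 3.54 and 4.37 FPKM in MC903 wild type skin (0.91 ± 0.14, limma adjusted p = 0.000375). Its untreated level was 7.74 to 8.25 FPKM under the knockout label and 6.63 to 8.59 FPKM in wild type. In wild type skin MC903 lowered 6 of the 10, among them Cd59a, an inhibitor of the terminal pore (-1.82 ± 0.12, limma adjusted p = 2.76e-07). Cd59a fell less in skin labelled knockout (-0.61 ± 0.12, limma adjusted p = 0.00150), with a difference between responses of 1.22 ± 0.17 (limma adjusted p = 0.000342). It was the gene with the smallest adjusted p among the 7 that differed in untreated skin, at 15.6, 13.5 and 17.3 FPKM under the knockout label, against 26.6, 28.7 and 30.8 FPKM in wild type (-0.88 ± 0.12, limma adjusted p = 0.00203).

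Of 9 tested receptors 7 were higher in MC903 skin labelled knockout than in MC903 wild type skin and 1, C1qbp, was lower. C3ar1, the receptor for the C3 fragment C3a, had 13.8, 15.2 and 19.5 FPKM in MC903 skin labelled knockout, against 3.81, 3.73 and 3.83 FPKM in MC903 wild type skin (1.94 ± 0.14, limma adjusted p = 3.11e-06). C5ar1, the receptor for C5a, had 15.8, 19.8 and 19.0 FPKM, against 4.51, 5.77 and 5.63 FPKM in the same groups (1.69 ± 0.12, limma adjusted p = 2.69e-06). The groups did not overlap for either receptor, as was so for 62.7% of all tested genes. Itgb2, the shared beta chain of complement receptors 3 and 4, was higher by 1.98 ± 0.12 (limma adjusted p = 1.84e-06). These receptors are carried by myeloid cells, whose markers were higher in the same libraries, as given above for macrophages. Neutrophil markers were higher too, with 4 of 5 tested higher after MC903, against 25.9% of all tested genes. Neutrophil marker sums were 96.4 to 144 FPKM in MC903 skin labelled knockout, against 35.5 to 50.8 FPKM in MC903 wild type skin. The part of either cell type was not tested.

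Across the 12 libraries the members fell into patterns that are given as a description, since the libraries share groups. C1qb and C1qc had a Pearson r of 0.97 on the log2 scale, C1qb and C3 of 0.90, C2 and C4b of 0.92, and C1ra and Cfb of 0.90. C1qa was less close to C1qb (0.80). Outside the members, C1qb and C1qc had the same leading pair, Ctsz (0.99 and 0.98), a lysosomal protease of phagocytes, and Cyba (0.98 for each), a subunit of the phagocyte oxidase. C3 was most like Emilin2 (0.99), an extracellular matrix glycoprotein, and Spi1 (0.98), which encodes PU.1. C4b was most like Adora1 (0.99), an adenosine receptor, C2 most like the kinase gene Nuak1 (0.97), C1ra most like Txndc5 (0.97), and Cfb most like Kdelr2 (0.96), with the fibroblast proteoglycan gene Lum in its list (0.94). C1qa was most like Mydgf (0.97), and C1s1, whose level moved least, had the lowest leading value, with Glb1 (0.84).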

How the data were processed

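Poly-A RNA of mouse skin was primed with random hexamers, and the labels' protocols describe no step that marks strand. The authors deposited FPKM per gene for 12 skin libraries. Genome mm10 and featureCounts are named per the submitters' processing notes, while for the aligner, annotation and FPKM software the name is not given in the sources used here. Values were whole multiples of 1 read for 99.98% of entries (tolerance 0.01 reads), which gave library totals of 16869716 to 18485698 reads. The 3 DRG samples of the series were not analysed here. The table had 0 other sample columns.

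Genes with at least 0.5 FPKM in 3 or more libraries were tested (17646 of 54532). Values were log2(FPKM + 0.5), and a fold change on this scale understates the change of low genes. One limma model covered the 4 groups (8 residual degrees of freedom, moderated variance with a mean trend), with two-sided p-values adjusted by Benjamini-Hochberg over all tested genes at 0.05. It was tested on simulated reads with the same spread setting for every gene and no outlying library. The data differ from that setting, so the simulation does not show how the fit behaves under their spread. R 4.3.3, limma 3.58.1, Python 3.11.15, numpy 2.4.6, pandas 2.3.3 and matplotlib 3.10.9 were used. The difference of responses was the interaction term. The text names the 9 members, their near copies, up to 4 passing genes per list by adjusted p, and the 5 genes most like each member. Other pathway genes (46) and cell type markers (75) were listed. The members and lists were chosen with earlier results of these data known, and a few more genes of those lists were named after their values were seen. The labels do not say whether replicate numbers pair the samples. Same-numbered deviations correlated at -0.13 to 0.14, and differently numbered ones at -0.19 to 0.17. Between MC903 and untreated skin labelled knockout these were 0.046 to 0.094 and -0.064 to 0.012. With 3 libraries a group such values cannot decide whether samples were paired. Alternatives were pseudocounts of 0.1 and 1, no filter or 1 FPKM, TPM, total reads, robust moderation, library weights, limma-voom on recovered reads (8579 genes called for MC903 in skin labelled knockout, 11109 for MC903 in wild type skin, 2434 between untreated genotypes and 9201 between MC903 genotypes), a replicate block, fits of only the groups compared, and leaving out each library. Some listed genes count in the totals but are not reported here by name.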

Additional observations from a re-analysis of the deposited data

Results flagged for a closer look

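The MC903 response differed between skin labelled knockout and wild type skin by the interaction term of the limma model (adjusted p at or under 0.05) for 2 members and 11 other complement genes that the text names. In each the response of skin labelled knockout minus that of wild type skin was positive on the log2 scale. Among the members the difference was 0.84 for C3 and 0.57 for C4b, and that of C4b did not pass in every fit that left out 1 library. Among proteases and recognition molecules it was 0.78 for C1rl, 0.90 for Masp1 and 1.35 for Colec12, and those of C1rl and Masp1 did not pass in every fit that left out 1 library. Among regulators it was 1.08 for Vtn, 0.79 for Cd55, 1.22 for Cd59a and 0.66 for Cr1l. Among receptors it was 1.61 for C3ar1, 1.24 for C5ar1, 1.55 for Itgb2 and 1.46 for Cd93.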

How the results depend on the processing

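The 9 members were fitted under 23 alternatives in 4 comparisons and 22 for the difference of responses (Cfb had 1 fewer in each), and no called direction was reversed: 955 values kept their side of the threshold, 37 passed only under the alternative and 29 only in the analysis reported. In untreated skin the number of members that passed between genotypes (0) was 1 with a filter of 1 FPKM, 1 under TPM, 1 with limma-voom, 7 with library weights and 0 to 6 on leaving out 1 library. After MC903 that number (5) was 8 under TPM and 4 to 7 on leaving out 1 library. For the difference of responses it (2) was 1 with no filter and 1 to 3 on leaving out 1 library. The causes were not tested. For the MC903 response 4 to 5 members passed in skin labelled knockout and 4 to 6 in wild type skin on leaving out 1 library.

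Over all genes, 2064 passed in untreated skin, 6548 with library weights, 613 when only the groups compared were fitted, and 714 to 3561 on leaving out 1 library. Leaving out 1 library gave 6726 to 9285 genes for MC903 in skin labelled knockout, 10071 to 11186 in wild type skin, 7789 to 9972 between genotypes after MC903 and 5737 to 8000 for the difference of responses. Rescaling to TPM moved the median log2 fold change of all genes to -0.18 for MC903 in skin labelled knockout, -0.40 for MC903 in wild type skin, 0.24 between genotypes after MC903 and 0.25 for the difference of responses. The share of calls that were higher was then 33.5%, 26.7%, 73.7% and 72.2%, against 52.1%, 51.8%, 49.8% and 50.3%. Total reads gave a median of -0.15 and a share of 40.0% in wild type skin, 0.11 and 61.9% for the difference of responses, and 49.7% against 61.1% between untreated genotypes.

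With the replicate number as a block, 2 members passed in untreated skin (C1qb and Cfb), and C1qc passed between genotypes after MC903 (0.53, limma adjusted p = 0.0193). Whether the numbers pair the samples is not known, so this is given as a different fit and not as a stronger effect. Cfb rested on 3 to 51 reads a library. Whether depth or the counting of reads on exons shared with Gm20547 limits it was not tested.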
